A study of Mus musculus with 11 samples.

Results

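The comparison described here sets 3 tumours from mice given palbociclib together with OPG-Fc (the combination) against 3 tumours from mice given OPG-Fc alone, 6 of the 11 sequenced tumours. Since both groups received OPG-Fc, the comparison asks what the CDK4/6 inhibitor adds to RANKL blockade. All 11 tumours came from wild-type 4T1 cells, which derive from a mouse mammary carcinoma and serve to model triple-negative disease. They were injected in Matrigel under the skin of both flanks of NSG mice, which lack T, B and NK cells. The series title calls the model syngeneic. Treatment began at a tumour volume of about 100 mm3 and tumours were taken after 12 days. OPG-Fc was injected at 10 mg/kg, 3 times a week, and palbociclib was given by mouth at 30 mg/kg per day. The other 5 tumours had palbociclib alone (n = 3) or vehicle (n = 2), and serve here for a second palbociclib contrast, for the interaction and, in some fits, for the estimate of the spread. The labels do not say which tumours shared an animal. Combination tumours 1 and 2 share the first number of their column names, as do OPG-Fc tumours 2 and 3, so the p-values measure the spread between these tumours and may rest on fewer animals.

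Palbociclib blocks the kinases CDK4 and CDK6, which with D-type cyclins phosphorylate the retinoblastoma protein and release E2F factors that drive entry into S phase. RANKL is a cytokine of the tumour necrosis factor family; its receptor RANK acts in osteoclast formation and in mammary epithelium, and osteoprotegerin (OPG) is the natural decoy receptor that holds RANKL away from RANK. A tumour piece also contains a stroma of fibroblasts, which make fibrillar collagen, and of vessels, whose endothelial cells and pericytes sit on a basement membrane of type IV collagen, laminin, nidogen and perlecan. Transcripts were measured in whole tumour pieces, so fewer cells of a type and less RNA per cell cannot be told apart.

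Expression was given as FPKM, a fragment count divided by transcript length and by the library's mapped fragments. Of 17181 genes in the table, 12617 reached FPKM 1 in 2 or more of the 6 tumours and were tested. A gene passed when limma's moderated test on log2(FPKM + 1) gave a Benjamini-Hochberg adjusted p under 0.05 over these genes. Differences below are the combination minus OPG-Fc on that scale, with their standard errors, and unadjusted p means limma's p before adjustment, counted under 0.05. The table gives no counts, so the depth is unknown.

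Library properties differed between the groups along with the treatment. Krt18, a luminal keratin, lay between FPKM 876 and 1434 in the 6 tumours. The 17 adipocyte markers tested had a summed FPKM of 169 to 883 in the combination tumours and 1044 to 3292 in the OPG-Fc tumours, and none was at 0 in all 6. Ribosomal protein genes held 26.4% to 33.5% of the summed FPKM with the combination and 20.1% to 23.2% with OPG-Fc. The difference also followed transcript length: its median was 0.29 in the fifth of genes with the shortest transcripts and -0.39 in the fifth with the longest, against -0.07 over all genes. OPG-Fc tumour 2 held lymphoid transcripts, with a summed FPKM of 936 over 15 T, B and NK cell genes against 36.7 to 92.5 in the combination tumours. Vehicle tumour 2 stood apart from the other 10, with a Krt18 FPKM of 15.7.

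With palbociclib added, 185 genes were lower (1.47% of those tested) and 35 were higher (0.277%). The genes that fell were led by collagens, basement membrane proteins, vessel markers, complement and lipid genes, and histone genes made up 13 of the 35 that rose. The 3 and 3 tumours did not overlap for any of the 220. By the same measure 23.7% of all tested genes were lower and 15.7% higher without overlap, and 17.8% and 10.9% had an unadjusted p under 0.05 in those directions. When tumours that share a first number were averaged, which leaves 2 against 2, 0 genes passed in either direction and 2423 had an unadjusted p under 0.05. The number passing also depended on single tumours. It was 0 higher and 0 lower without combination tumour 1, without combination tumour 2 or without OPG-Fc tumour 1, 2 and 1 without OPG-Fc tumour 2, 0 and 21 without OPG-Fc tumour 3, and 117 and 303 without combination tumour 3. Since the groups overlapped for none of the 220 genes, their direction is fixed in each of these fits. With the 3 palbociclib-alone tumours and vehicle tumour 1 also in the fit, which then share 1 estimate of the spread, 170 were higher and 593 lower, among them 212 of the 220, while with vehicle tumour 2 included too it was 1 and 12.

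**Figure D1:**
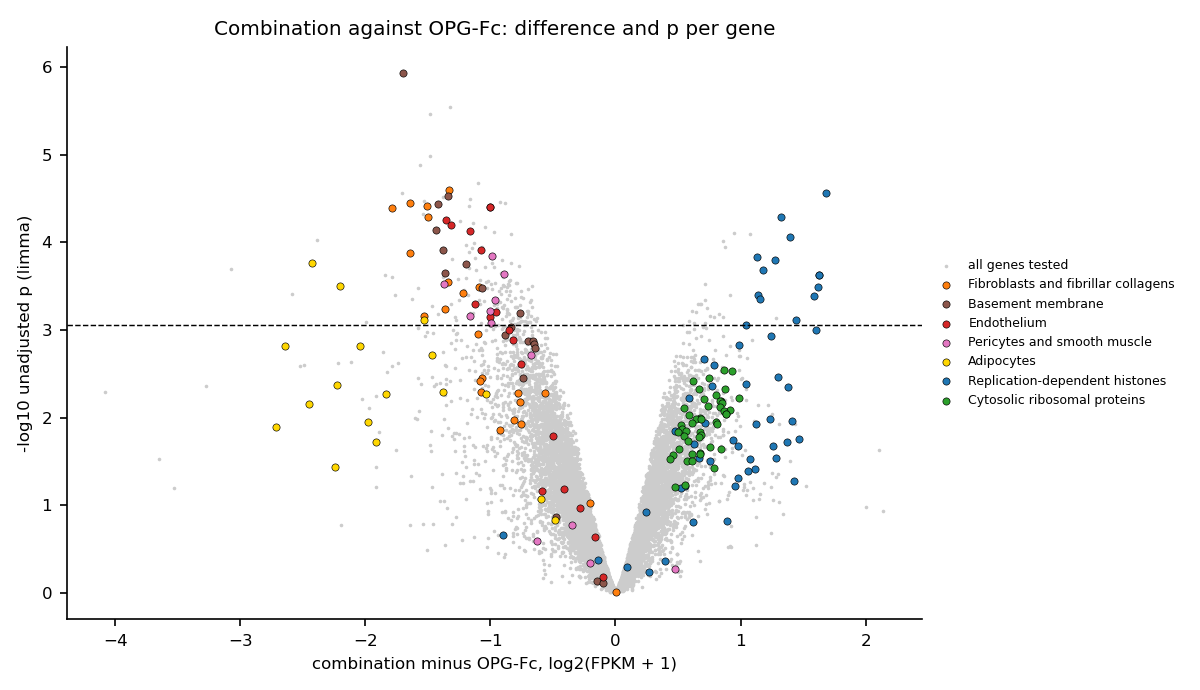
Each point is 1 of the 12617 genes, with the difference between combination and OPG-Fc tumours in log2(FPKM + 1) on the x axis and the negative log10 of the unadjusted limma p on the y axis; members of 7 gene lists are coloured, and points above the dashed line have an adjusted p under 0.05. Fibroblast, basement membrane, vessel and adipocyte genes lie on the left and histone and ribosomal protein genes on the right, with the ribosomal protein genes all below the line.

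Fibroblast and fibrillar collagen genes were lower as a group. Of 23 members, all tested, 11 passed and all of these were lower, 22 had a difference below 0, and the list's median was -1.09, against -0.07 over all genes. Col1a2, a chain of type I collagen, the main fibre of scar and stroma, had FPKM values of 243, 178 and 175 in the combination tumours and 728, 502 and 644 in the OPG-Fc tumours. The highest combination tumour was thus below the lowest OPG-Fc tumour, and the difference was -1.65 ± 0.19 (adjusted p = 0.0232). Col3a1, the single chain of type III collagen, read 279, 197 and 205 against 983, 614 and 779, a difference of -1.79 ± 0.21 (adjusted p = 0.0232). Fbn1, which encodes fibrillin-1 of elastic microfibrils, passed with an adjusted p of 0.0232, and Fbln1, encoding the matrix glycoprotein fibulin-1, fell by 1.33 (SE 0.15). Col14a1, a collagen that coats fibrils and is not on the list, stood at 2.62, 1.59 and 3.45 against 14.9, 13.2 and 7.52, a difference of -1.84 ± 0.28. Among the other members of the list that passed were Col1a1, Col5a2 (-1.64) and Fap, a protease of activated fibroblasts (-1.09). The list's median was -0.94 after the length trend was removed and -1.31 with the adipocyte level as a covariate.

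The stretch before the start of the type I and type III collagen genes is shown because these were the collagen genes with the highest FPKM among those that fell. It covers 250 bases up to the RefSeq start in the mouse build GRCm38.p6, at chr6:4505368-4505617 (plus strand) for Col1a2 and chr1:45311288-45311537 (plus strand) for Col3a1, both upstream of the transcript. Capitals mark matches on either strand to CCAAT (the CCAAT box), to TATAAA (the TATA box) or to ATTTGCAT (the octamer).
Col1a2: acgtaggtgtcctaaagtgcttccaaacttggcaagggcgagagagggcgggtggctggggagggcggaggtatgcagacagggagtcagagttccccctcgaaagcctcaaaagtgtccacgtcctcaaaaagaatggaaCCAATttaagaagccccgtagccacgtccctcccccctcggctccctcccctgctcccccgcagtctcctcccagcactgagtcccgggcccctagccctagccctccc
Col3a1: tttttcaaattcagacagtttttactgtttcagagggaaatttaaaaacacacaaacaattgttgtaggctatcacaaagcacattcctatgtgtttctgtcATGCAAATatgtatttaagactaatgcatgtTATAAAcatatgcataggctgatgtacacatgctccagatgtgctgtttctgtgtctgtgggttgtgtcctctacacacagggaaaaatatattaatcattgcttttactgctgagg
Col1a2 holds CCAAT, and Col3a1 holds TATAAA and the reverse complement of ATTTGCAT. RefSeq promoters were matched by symbol for 121 of the 185 genes that fell and 10051 of the 12617 tested. CCAAT occurred in 28.9% of those 121 genes and 40.9% of all tested genes, and TATAAA in 14% and 8.29%. A match is a string of letters, not a shown binding site.

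Basement membrane genes followed the same direction. Of 21 listed, 19 were tested (Col4a3 and Lama1 had an FPKM of at most 0.31), 9 passed, all lower, and the median was -0.83. Col15a1, a collagen of the zone between basement membrane and stroma, had the smallest p of all genes: 10.0, 10.97 and 9.30 in the combination tumours against 38.6, 32.9 and 33.7 with OPG-Fc. Each group was tight and the gap wide, at -1.70 ± 0.12 (adjusted p = 0.0144). Lama4, a laminin chain of vessel walls, read 6.22, 4.71 and 4.53 against 15.7, 13 and 14.8 (-1.34 ± 0.15). Nid1, the nidogen that links laminin to type IV collagen, read 15.6, 11.3 and 11.1 against 40.8, 32.9 and 32.3 (-1.42 ± 0.17). Both genes of the common type IV collagen passed, Col4a1 by -1.38 ± 0.19 and Col4a2 by -1.43 ± 0.19. Hspg2, which encodes perlecan, fell by 1.37, and Nid2 also passed. Lamc1, a laminin chain found in most basement membranes, fell by 1.07 and Sparc, a collagen-binding glycoprotein, by 0.76. The list's median was -0.49 with the length trend removed, a smaller value for a list of mostly long transcripts, and -1.09 with the adipocyte covariate.

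Among enzymes that cut or crosslink matrix and their inhibitors, 26 of 27 were tested and 3 passed, all lower, with a median of -0.48. By unadjusted p 13 were lower, and 14 were lower without overlap. Timp3, an inhibitor of metalloproteinases that stays bound to matrix, had 7.47, 7.38 and 7.35 with the combination and 20.4, 20.0 and 19.7 with OPG-Fc. The 3 values in each group were nearly equal, and the difference was -1.32 ± 0.11 (adjusted p = 0.0144). Mmp2, a gelatinase made mostly by stromal cells, fell by 1.21 (SE 0.20), from 82.6, 73.9 and 96.4 to 46.6, 35.1 and 27.7. Plod1, a lysyl hydroxylase of collagen, fell by 0.67 (SE 0.11).

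**Figure D2:**
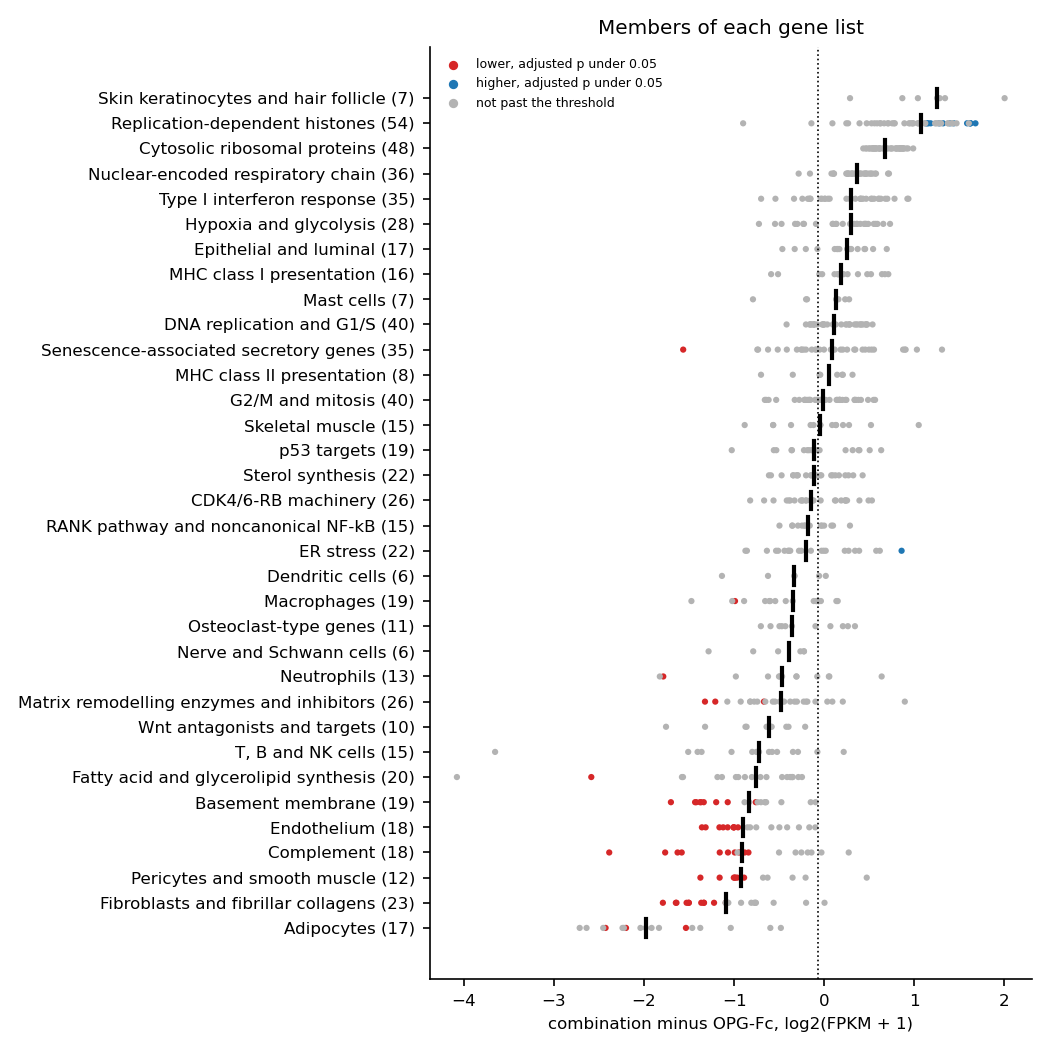
Each row is a gene list with its number of tested members, each point a member's difference between combination and OPG-Fc tumours in log2(FPKM + 1), the bar the list's median and the dotted line the median of all genes (-0.07). Red and blue points passed at an adjusted p under 0.05 and were lower or higher. Stromal, vessel and adipocyte lists lie to the left and skin keratinocyte, histone and ribosomal protein lists to the right.

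Vessel genes were lower in both cell layers. All 18 endothelial genes were tested and all 18 had a difference below 0; 9 passed, and the median was -0.90. Cdh5, the cadherin of endothelial junctions, read 10.1, 9.23 and 7.91 in the combination tumours and 30.7, 21.0 and 23.4 in the OPG-Fc tumours (-1.36 ± 0.17, adjusted p = 0.027). Kdr, the main receptor for VEGF, read 2.26, 1.63 and 1.83 against 7.61, 5.63 and 5.56 (-1.32 ± 0.17, adjusted p = 0.0275). In both genes the groups were separated by more than the range within either one. Pecam1, an adhesion molecule of endothelial contacts, fell by 1.00 (SE 0.12) and Plvap, the diaphragm protein of fenestrated vessels, by 1.01 (SE 0.12). The receptors Tie1 and Tek, the transcription factor Erg and the clotting factor Vwf also passed, Tie1 at -1.07, Erg at -1.12 and Vwf at -1.16. Vegfa, the growth factor that Kdr binds, had values of 35.9, 31.6 and 31.8 against 50.4, 47.5 and 48.0, a difference of -0.55 ± 0.11 that did not pass (adjusted p = 0.0573). The hypoxia and glycolysis list that holds Vegfa lay mostly the other way. Its median was 0.295, and of 28 members 12 were higher and 5 lower by unadjusted p, with 0 passing.

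Of 12 pericyte and smooth muscle genes, 7 passed, all lower, with a median of -0.93. Pdgfrb, the receptor by which pericytes are recruited to vessels, had 13.8, 12.3 and 10.1 with the combination and 25.3, 23.01 and 25.8 with OPG-Fc (-0.99 ± 0.14, adjusted p = 0.0356). Rgs5, a signalling regulator typical of pericytes, fell by 1.37 (SE 0.22), the proteoglycan gene Cspg4 by 0.96 (SE 0.17) and the adhesion gene Mcam by 0.89 (SE 0.14). Notch3, Myh11 and Abcc9 passed as well, Myh11 at -1.16 and Abcc9 at -0.99. The endothelial and pericyte medians were -0.75 and -0.58 with the length trend removed, and -0.86 and -0.83 with the adipocyte covariate.

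**Figure D3:**
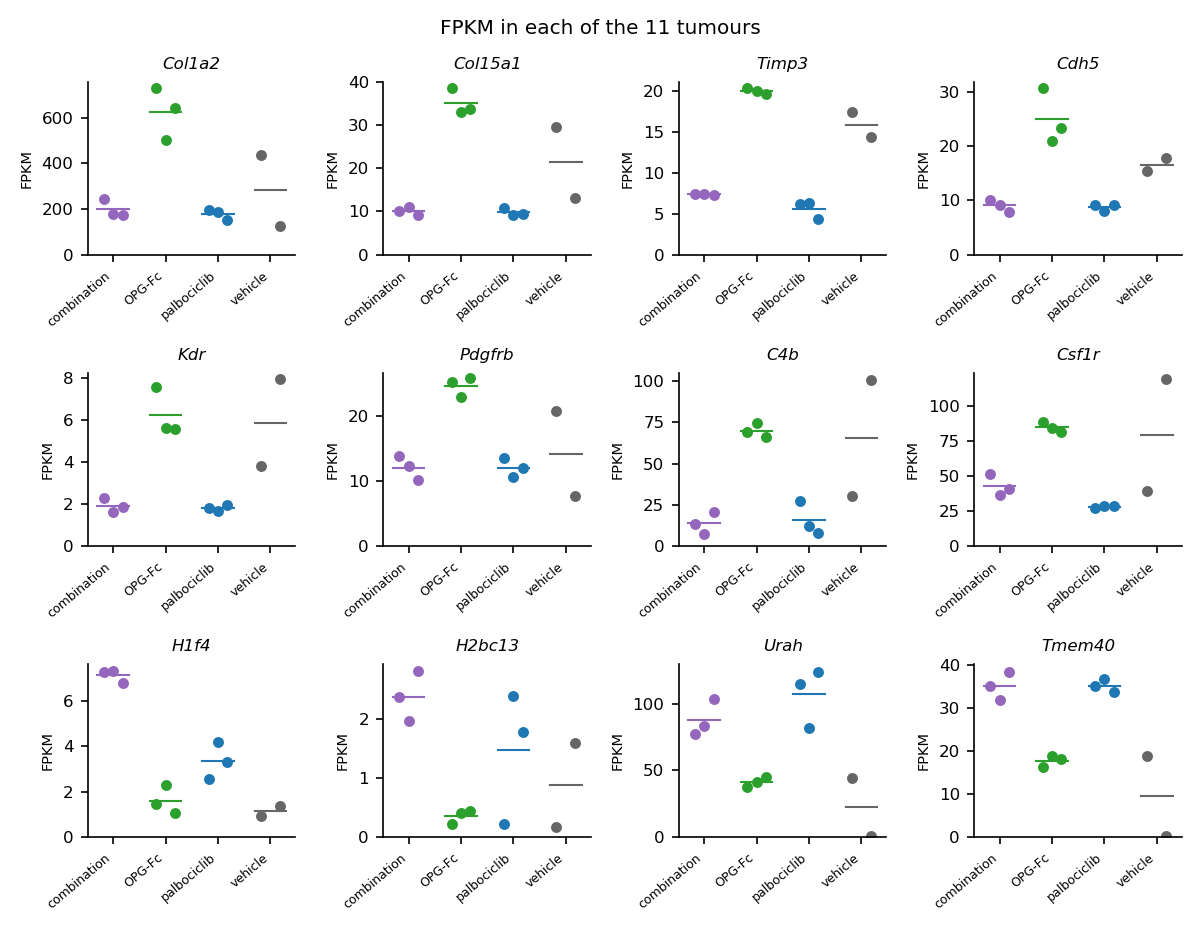
FPKM of 12 genes (linear axes from 0) in each of the 11 tumours, grouped as combination, OPG-Fc, palbociclib alone and vehicle; points are tumours and bars group means. Stromal, vessel and complement genes are lower with the combination than with OPG-Fc without overlap, the bottom row is higher, and the vehicle tumours are spread widely, with Urah and Tmem40 near 0 in vehicle tumour 2.

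Complement genes, a family grouped only after its values had been seen, were lower in 10 of 18 tested members, with a median of -0.91. C4b, a component of the classical pathway, had 13.4, 6.96 and 20.6 in the combination tumours against 69.3, 74.4 and 65.8 with OPG-Fc (-2.39 ± 0.32, adjusted p = 0.0303). C3, on which all complement pathways converge, had 66.5, 56.1 and 49.6 against 169, 252 and 121 (-1.58 ± 0.26, adjusted p = 0.0398). Serping1, which encodes the C1 inhibitor, a regulator of the classical pathway, fell by 1.07 (SE 0.15). C1ra and C1s1, the proteases of the C1 complex, were at -0.88 ± 0.10 and -1.16 ± 0.13.

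Adipocyte genes had the lowest median of the lists, -1.98, with a wide spread within each group and few members passing. Of 21 listed, 17 were tested and all 17 had a difference below 0; 3 passed, 13 did not overlap between the groups and 15 had an unadjusted p under 0.05. Adipoq, which encodes the adipocyte hormone adiponectin, had 17.0, 3.28 and 23.1 in the combination tumours and 75.0, 113 and 34.1 in the OPG-Fc tumours. The groups did not overlap, yet the values spread several-fold within each, and the difference of -2.45 ± 0.67 did not pass (adjusted p = 0.0861). Lpl, the lipase that releases fatty acids from lipoproteins, had 9.10, 3.59 and 6.12 against 47.0, 44.9 and 22.3 (-2.43 ± 0.36, adjusted p = 0.0372). Cd36, a fatty acid uptake receptor also made by macrophages and endothelium, fell by 2.20 (SE 0.36), and Pparg, the transcription factor of fat cell formation, by 1.53 (SE 0.29). Plin1, which coats the fat droplet, read 2.45, 0.85 and 2.11 against 11, 18.2 and 5.00 and did not pass (-2.04 ± 0.42, adjusted p = 0.0612).

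Lipid synthesis genes lay in the same direction. All 20 fatty acid and glycerolipid synthesis genes had a difference below 0, the median was -0.76, 16 had an unadjusted p under 0.05 and 1 passed. That gene was Scd1, the desaturase that makes oleate, with 63.4, 26.1 and 58.8 in the combination tumours and 319, 434 and 161 with OPG-Fc (-2.59 ± 0.43, adjusted p = 0.0418). Fasn, the fatty acid synthase, read 28.7, 21.9 and 25.1 against 79.6, 120 and 47.5 (-1.58 ± 0.30, adjusted p = 0.0515), so OPG-Fc tumour 2 was the highest for Scd1, Fasn, Adipoq and Plin1 alike. Ces1d, a carboxylesterase of fat and liver, was the lowest of all genes that passed, at 1.05, 0.19 and 1.84 against 18.1, 25.2 and 7.26 (-3.07 ± 0.46). Aoc3, an amine oxidase of fat cells and vessel walls, read 3.76, 2.55 and 3.49 against 15.5, 13.5 and 10.1 (-1.71 ± 0.19). Sterol synthesis genes, whose products also come from acetyl-CoA, had a median of -0.12 and 0 of 22 passed, with 2 higher and 2 lower by unadjusted p.

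The adipocyte list separated the groups completely: its median FPKM per tumour was 2.23 to 5.34 with the combination and 9.12 to 28.7 with OPG-Fc. A fit with the mean adipocyte level as a covariate therefore has little left to estimate the treatment from. In it 0 genes were lower and 1 was higher by adjusted p, 1289 had an unadjusted p under 0.05, and all 220 genes still had the same direction. The median of the fatty acid synthesis list moved to -0.17 there. That of the macrophage list moved from -0.35 to 0.04, of the T, B and NK cell list from -0.72 to 0.42 and of the complement family from -0.91 to -0.695. The medians of the fibroblast, basement membrane and endothelial lists, given above, stayed near or below their first values. Since the covariate separates the groups, none of these medians can tell treatment and adipocyte level apart. Whether fat next to the tumour was sampled unequally was not tested.

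**Figure D4:**
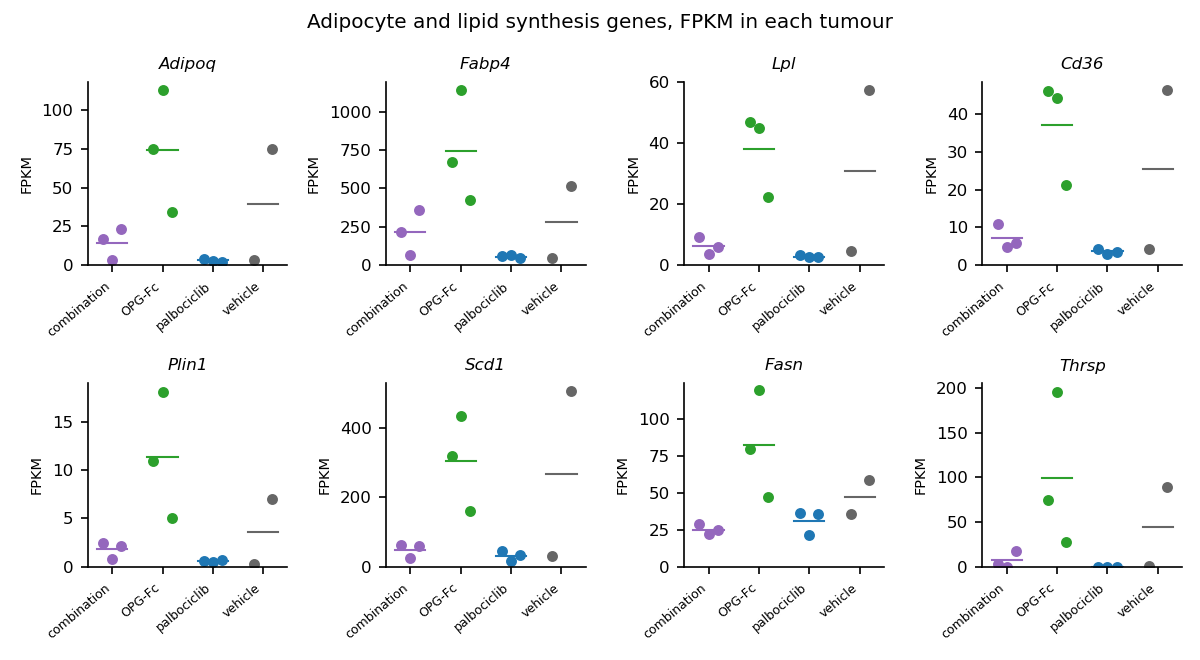
FPKM of 8 adipocyte and lipid synthesis genes (linear axes from 0) in each of the 11 tumours, by group; points are tumours and bars group means. The OPG-Fc tumours and vehicle tumour 2 hold the high values for most of the genes, and palbociclib-alone tumours and vehicle tumour 1 the low ones.

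Among 19 macrophage genes 1 passed: Csf1r, the receptor on which macrophages depend, at 51.2, 36.2 and 40.4 against 88.3, 84.4 and 81.5 (-0.99 ± 0.15, adjusted p = 0.0372). The list's median was -0.35 and its summed FPKM overlapped between the groups (2899 to 6386 and 5505 to 6266). Among 13 neutrophil genes tested, Ltf, the granule protein lactoferrin, passed at 0.90, 0.51 and 1.5 against 7.06, 6.99 and 3.57 (-1.79 ± 0.28), while Lcn2, another secreted iron-scavenging protein that tumour cells also make, read 605, 493 and 1188 against 540, 389 and 446. The neutrophil list's median was -0.47, and its summed FPKM overlapped between the groups (1520 to 2238 and 878 to 2382). Igfbp5, an insulin-like growth factor binding protein, was the 1 gene that passed among 35 senescence-associated secretory genes (-1.57 ± 0.16). Of the 15 T, B and NK cell genes 0 passed, and 2 were lower by unadjusted p. Jchain, the joining chain of antibodies, had an FPKM of 476 in OPG-Fc tumour 2 and of 0.72 to 13.3 in the other 5 tumours. Skin keratinocyte genes had the highest median of all lists, 1.25. All 7 tested were above 0, with 3 higher by unadjusted p, 0 past the threshold and 0 without overlap. Their summed FPKM was 7.23 to 64.7 with the combination and 7.9 to 15.4 with OPG-Fc. Whether skin was sampled unequally was not tested. Skeletal muscle genes had a median of -0.04 and 0 members past the threshold or by unadjusted p, and their levels overlapped between the groups.

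Among the genes that passed, histone genes led the side that rose. Replication-dependent histone genes, which supply the nucleosomes of newly made DNA and whose messages normally end in a stem-loop in place of a poly(A) tail, were grouped as a family after their values had been seen. Of 54 tested, 13 passed, all higher, 42 had an unadjusted p under 0.05 and the median was 1.07. H1f4, a linker histone, had 7.28, 7.35 and 6.81 in the combination tumours and 1.43, 2.28 and 1.06 with OPG-Fc (1.68 ± 0.19, adjusted p = 0.0232). The 3 combination values lay close together and well above the highest OPG-Fc value. H2bc13, an H2B gene, had 2.36, 1.96 and 2.80 against 0.21, 0.40 and 0.43 (1.32 ± 0.16, adjusted p = 0.0262), and H1f3, a second linker histone, 5.25, 4.73 and 4.86 against 1.91, 1.05 and 0.93 (1.40 ± 0.19). H2ac23, an H2A gene, read 7.63, 6.18 and 9.28 against 3.39, 3.21 and 2.21 (1.14 ± 0.19). H2bc23 and H2bc24 (8.18, 5.50 and 11.7 against 1.83, 2.47 and 1.63) hold the same value in each of the 11 tumours, so they count as 1 measurement, and all members of so similar a family are uncertain one by one. The libraries were made from poly(A)-selected RNA, so these values cover only the transcripts that such selection kept. The family's median was 0.69 with the length trend removed and 1.74 with the adipocyte covariate.

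The 250 bases before the RefSeq start are shown for H1f4 and H2bc13, the histone genes with the smallest p, because histone promoters share short elements. They lie at chr13:23622559-23622808 (minus strand) and chr13:21716184-21716433 (minus strand) in GRCm38.p6, in a chromosome that holds the main histone cluster, and capitals mark the same letters as in the collagen promoters.
H1f4: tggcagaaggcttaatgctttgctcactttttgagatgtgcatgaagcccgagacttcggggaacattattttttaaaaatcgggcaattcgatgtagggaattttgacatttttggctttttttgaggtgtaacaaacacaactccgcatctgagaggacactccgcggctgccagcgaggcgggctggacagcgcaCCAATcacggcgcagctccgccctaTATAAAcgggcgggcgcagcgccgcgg
H2bc13: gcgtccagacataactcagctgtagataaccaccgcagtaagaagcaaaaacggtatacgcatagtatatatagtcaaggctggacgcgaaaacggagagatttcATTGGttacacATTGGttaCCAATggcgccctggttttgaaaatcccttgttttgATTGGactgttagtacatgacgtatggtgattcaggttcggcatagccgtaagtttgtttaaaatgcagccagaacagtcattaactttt
H1f4 holds CCAAT followed by TATAAA close to the start, and H2bc13 holds CCAAT in 4 places, 3 of them on the opposite strand. Among the 12 histone genes that rose and had a promoter, CCAAT occurred in 83.3% and TATAAA in 50.0%, and over the 48 tested histone genes with a promoter the shares were 83.3% and 45.8%. The letters of the octamer, ATTTGCAT, occurred in 25.0% of the 12, 22.9% of the 48 and 1.66% of all tested genes. The histone genes that rose thus had these letters about as often as the family did, and of 14 other genes that rose CCAAT occurred in 21.4%.

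The other genes that rose by the most included metabolic and membrane protein genes. Urah, a hydrolase of the uric acid pathway, had 77.7, 83.7 and 104 with the combination and 37.6, 40.9 and 44.6 with OPG-Fc (1.08 ± 0.14, adjusted p = 0.0277). Tmem40, a membrane protein gene, had 34.9, 31.8 and 38.4 against 16.2, 18.8 and 18.1 (0.95 ± 0.12, adjusted p = 0.0277). In both, every combination tumour was well above every OPG-Fc tumour. Slc39a4, a zinc importer, rose by 0.92 ± 0.15, Tmem171 by 0.88 ± 0.12 and Phykpl, a lyase that breaks down a hydroxylysine product, by 0.86 ± 0.12. Trib3, a pseudokinase induced by ATF4 in the stress response, read 18.7, 27.2 and 20.6 against 10.8, 11.8 and 12.3 (0.86 ± 0.16, adjusted p = 0.0485) and was the 1 gene that passed among 22 endoplasmic reticulum stress genes. Hsp90b1, a chaperone of that compartment on the same list, lay the other way (-0.87 ± 0.18, adjusted p = 0.0579). Gm5148, a predicted gene, read 40.7, 55.5 and 66.0 against 24.8, 24.8 and 15.4 (1.28 ± 0.24).

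Ribosomal protein genes were higher as a block without any of them passing. All 48 tested cytosolic ribosomal protein genes had a difference above 0, 47 did not overlap, 46 had an unadjusted p under 0.05 and the median was 0.68, but 0 passed by adjusted p. Rps18, of the small subunit, read 5129, 6097 and 8082 against 3003, 3395 and 3575 (0.93 ± 0.22, adjusted p = 0.0701), with combination tumour 3 the highest. These are short transcripts, and the list's median was 0.44 after the length trend was removed. The nuclear-encoded respiratory chain genes had a median of 0.36 and 17 of 36 had an unadjusted p under 0.05, with 0 passing; Ndufb9, a complex I subunit, stood at 0.72 ± 0.17. Type I interferon response genes had a median of 0.30, 12 of 35 higher by unadjusted p and 0 passing, with Isg15, a ubiquitin-like interferon-induced protein, at 109, 140 and 163 against 52.1, 100 and 66.5.

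The target pathway of palbociclib showed no gene past the threshold. Of 26 genes of the CDK4/6 and RB machinery 0 passed, with 2 higher and 3 lower by unadjusted p. Over all tested genes 0.277% passed as higher and 1.47% as lower, and 10.9% and 17.8% did so by unadjusted p. At such shares 0 passing does not set apart a list of this size, nor the lists of the next 2 paragraphs. Cdk4 read 383, 353 and 598 against 259, 330 and 313 (0.53 ± 0.22, adjusted p = 0.158), and Cdk6 read 8.69, 6.38 and 5.62 against 10.8, 8.13 and 8.95 (-0.39 ± 0.18). Ccnd1, encoding cyclin D1, their activator, read 282, 264 and 175 against 269, 226 and 297 (-0.16 ± 0.21), and Rb1, the retinoblastoma gene, had a difference of -0.33 ± 0.22. Ccnd2, encoding cyclin D2, read 5.15, 9.05 and 5.80 against 11.2, 14.2 and 11.6 (-0.82 ± 0.21, adjusted p = 0.0775), and the CDK inhibitor gene Cdkn1c had a difference of -0.67 ± 0.15 (adjusted p = 0.0699). Cdkn1a, which encodes the inhibitor p21, had 37.1, 42.8 and 36.0 against 34.4, 24.0 and 29.9 (0.39 ± 0.16, adjusted p = 0.15).

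The E2F-driven genes named here and the DNA replication and G2/M lists gave none past the threshold either. The replication-dependent histone genes, of which 13 passed as higher, are described above. The E2F-driven genes E2f1, Ccne1 and Ccne2 had differences of 0.12 ± 0.13, 0.25 ± 0.15 and -0.13 ± 0.27, and their groups overlapped. Among 40 DNA replication and G1/S genes 0 passed, the median was 0.11, and 11 were higher and 0 lower by unadjusted p; Gins2, of the replicative helicase, read 60.6, 53.5 and 66.9 against 38.7, 45.4 and 39.5 (0.54 ± 0.13, adjusted p = 0.0729). Among 40 G2/M genes 0 passed and the median was -0.01, with 3 higher and 3 lower by unadjusted p. Mki67, the marker of cycling cells, had 36.1, 21.5 and 16.9 with the combination and 38.1, 40.3 and 34.2 with OPG-Fc (-0.64 ± 0.25, adjusted p = 0.147). Its combination values spread widely and 1 of them lay inside the OPG-Fc range. Mki67 is a long transcript, and its difference was -0.10 with the length trend removed.

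The RANK axis was at low levels in both groups, which both received OPG-Fc. Tnfrsf11a, encoding RANK, had 1.71, 1.22 and 1.36 against 2.22, 1.49 and 1.47 (-0.16 ± 0.17). Tnfsf11, encoding RANKL, had 1.58, 2.07 and 0.36 against 1.27, 0.93 and 1.46, with a standard error of 0.30 around a difference of 0.00. Tnfrsf11b, encoding the mouse's own osteoprotegerin, had 2.89, 4.54 and 1.45 against 3.15, 2.23 and 2.21 (0.10 ± 0.29). Of 15 genes of RANK signalling and noncanonical NF-kB 0 passed, 1 was higher and 1 lower by unadjusted p, and the median was -0.18. Nfatc1, the transcription factor that RANK induces in osteoclasts, was at 8.43, 9.08 and 6.47 against 10.96, 13.2 and 10.8 (-0.50 ± 0.16, adjusted p = 0.105). Among 11 osteoclast-type genes tested 0 passed and 4 were lower by unadjusted p, with Itgb3, an integrin chain of osteoclasts and other cells, at -0.70 ± 0.16 (adjusted p = 0.0699).

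Palbociclib alone against vehicle gave the same drug contrast without OPG-Fc, in 5 tumours that the comparison of combination with OPG-Fc does not contain. Against vehicle tumour 1, which held adipocyte transcripts at the level of the palbociclib tumours (a list median FPKM of 1.27 against 1.16 to 1.82), 175 of the 185 genes that fell in the combination were also lower, where 54.2% of all genes were, and 33 of the 35 that rose were higher, where 45.8% were. All 3 palbociclib tumours were below vehicle tumour 1 for 150 of the 185 genes, against 33.4% of all tested genes, and above it for 23 of the 35, against 29.1%. The median difference of the 185 genes was -0.47 there and -0.99 between combination and OPG-Fc, and that of the 35 was 0.41 and 0.88. Against the mean of both vehicle tumours 150 of 185 were lower (52.6% of all genes) and 30 of 35 higher (47.4%), and against vehicle tumour 2 it was 134 of 185 (53.1%) and 30 of 35 (46.9%). All 3 palbociclib tumours were below both vehicle tumours for 107 of the 185 genes (20.2% of all genes) and above both for 20 of the 35 (16.5%). These counts are a description with no test, and both contrasts share the trend with length (medians of 0.19 and -0.19 among the shortest and the longest transcripts here).

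Gene by gene, Col15a1 was at 10.7, 9.17 and 9.46 in the palbociclib tumours, 29.6 in vehicle tumour 1 and 13.2 in vehicle tumour 2. Timp3 was at 6.16, 6.28 and 4.33 against 17.5 and 14.4, so here both vehicle tumours were higher. Of the 23 fibroblast genes 22 were below vehicle tumour 1 on average, with a median of -0.75. The list's summed FPKM was 1121 to 1345 in the palbociclib tumours, below vehicle tumour 1 (2337), while vehicle tumour 2 (1262) lay within that range. The basement membrane sum was 1040 to 1247, below vehicle tumour 1 (1731) but above vehicle tumour 2 (460). Of the 48 ribosomal protein genes 0 were below vehicle tumour 1 on average, with a median of 0.69. The medians of the adipocyte and fatty acid synthesis lists depended on the vehicle tumour, at -0.16 and -0.14 against vehicle tumour 1, whose adipocyte level was low, and -2.82 and -0.69 against vehicle tumour 2, whose level was high. Scd1 stood at 44.1, 17.4 and 33.2 in the palbociclib tumours against 30.0 in vehicle tumour 1 and 504 in vehicle tumour 2. The G2/M list's median differed between the contrasts, with no test of that difference. Of its 40 genes 37 were below vehicle tumour 1 on average, with a median of -0.325. Between combination and OPG-Fc 21 were below 0, with a median of -0.01. The list's summed FPKM was 791 to 1214 in the palbociclib tumours. Vehicle tumour 1 (1156) lay within that range and vehicle tumour 2 (1412) above it.

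**Figure D5:**
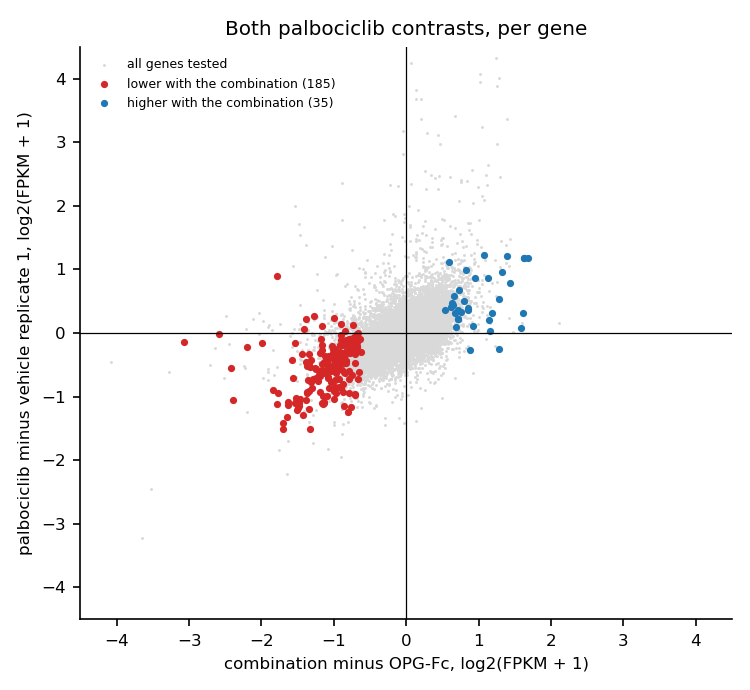
Each point is a gene, with the difference between combination and OPG-Fc on the x axis and between palbociclib alone and vehicle tumour 1 on the y axis, both in log2(FPKM + 1); genes that passed in the first contrast are coloured by direction, and 10 genes lie outside the axes. Of the coloured genes, 175 of 185 lie below 0 and 33 of 35 above 0 on the y axis.

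Whether palbociclib acted differently with and without OPG-Fc was tested as an interaction over all 11 tumours. Of 13074 genes that reached FPKM 1 in 2 or more of the 11 tumours, 0 passed in limma (0%), with a smallest adjusted p of 0.647, and 709 (5.42%) had an unadjusted p under 0.05. Without vehicle tumour 2 it was also 0, with 633 under 0.05. With 2 vehicle tumours that differ as these do, the interaction had little precision, and the counts do not show that palbociclib acted alike in both settings.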

How the data were processed

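RNA from the tumours was enriched for poly(A) transcripts and copied from random primers, per the labels' protocols. HISAT, Bowtie2 and RSEM and the builds GRCm39 and mm39 are named in the submitters' processing notes, with no versions. The authors deposited FPKM values, which are already scaled by transcript length and library, so they do not show depth; no clear whole-read steps were found. Values were taken as log2(FPKM + 1), which understates changes of low genes. Genes that reached FPKM 1 in 2 or more of the 6 tumours were fitted by group with limma 3.58.1 (moderated test with a variance trend, R 4.3.3), with Benjamini-Hochberg adjustment over 12617 genes. Alternatives are in the closing section. The length trend was removed per library with a natural spline of 5 degrees of freedom on transcript lengths of GENCODE vM21, matched by symbol for 98.8% of genes. Promoters are RefSeq's, build GRCm38.p6.

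The comparison, the 32 gene lists and the tests were chosen with earlier results of these data known. Genes are named by rule: the 10 highest and 10 lowest that passed, without overlap and with a mean FPKM of at least 5; up to 4 members with the smallest p per list; and 13 panel genes. One gene that the rule names is not reported here. Others that are named, and the histone and complement families, were chosen after their values were seen. Python 3.11.15 with matplotlib 3.10.9 drew the figures.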

Additional observations from a re-analysis of the deposited data

How the results depend on the processing

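The 220 genes that passed kept their direction in every alternative in which they were tested. For groups without overlap most of these alternatives fix the direction in advance. It could have changed only with median-of-ratios scaling, quantile normalization, the length trend removed or the adipocyte covariate. The counts of 35 higher and 185 lower genes moved as follows. They were 1 and 12 with all 11 tumours in the fit, 170 and 593 without vehicle tumour 2, and 174 and 600 with the 9 treated tumours. They were 0 and 2 without a filter, 1280 and 1987 with library weights, 8 and 39 with the length trend removed, and 1 and 0 with the adipocyte covariate. Averaging tumours that share a first number left 0 and 0 (2423 genes at an unadjusted p under 0.05), as did leaving out OPG-Fc tumour 1 and combination tumour 3 together (0 and 0, with 3425; chosen after seeing the data). A pseudocount of 0.1 gave 23 and 137, median-of-ratios scaling 23 and 112, and quantile normalization 25 and 91. That last setting moved the median of all genes from -0.07 to 0.02 and the share below 0 from 57.5% to 47.4%. With the replicate number as a block the counts were 3 and 48; same-numbered tumours correlated at 0.22, -0.41 and -0.13 in their deviations, so the numbers do not pair them. Leaving out each tumour in turn gave 0 to 117 higher and 0 to 303 lower genes. The adipocyte list's median was 0.0213 with its own level as the covariate. The cause of these shifts was not tested. The unknown depth leaves the precision of low genes unmeasured.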
